A study of Mus musculus with 45 samples.

Results

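The prefrontal cortex of Shank3-HM mice was compared with that of WT mice, using the 5 samples that the labels name as cortex of the Shank3 knock-out and the 5 of wildtype cortex. These are 10 of the 45 RNA sequencing samples of the study, which covers 3 genotypes (WT, Shank3-HT and Shank3-HM) and the cortex, hippocampus and striatum of adult mice. All animals were male C57BL/6J mice at an age of 13 weeks, with 5 mice per genotype. WT mice carried no Shank3 deletion, Shank3-HT mice were heterozygous, and Shank3-HM mice carried on both alleles a deletion of exons 14 to 16 of Shank3. The deletion is present in all cells from conception and not in a chosen cell type, and each sample is bulk tissue that mixes all cells of the dissected region. The columns of the deposited table write KI for the mice that the labels call knock-out, and they are called HM here. The 5 cortex samples of Shank3-HT mice entered the same fit, and their values are given beside those of the HM mice.

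Shank3 encodes a scaffolding protein of the postsynaptic density of excitatory synapses. It links the SAPAP proteins, which bind the PSD-95 complex and through it the glutamate receptors, to Homer proteins and to regulators of the actin cytoskeleton of the dendritic spine. Loss of a copy of the human gene underlies Phelan-McDermid syndrome, and mutations in it are found in autism spectrum disorder. The prefrontal cortex holds layered excitatory projection neurons, several classes of inhibitory interneurons, and glial and vascular cells.

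In the mouse gene annotation GENCODE M21 for the genome build GRCm38, Shank3 lies on the plus strand at chr15:89499623-89560261. On its transcript of 22 exons, exons 14, 15 and 16 lie at chr15:89531626-89531708, chr15:89532095-89532219 and chr15:89532329-89532461. They are shown because they define the HM genotype, with the exons in capitals and 15 flanking bases of exons 13 and 17 of the transcript in lower case. They belong to the stretch of the coding sequence that holds the PDZ domain, which binds SAPAP proteins.
exon 14: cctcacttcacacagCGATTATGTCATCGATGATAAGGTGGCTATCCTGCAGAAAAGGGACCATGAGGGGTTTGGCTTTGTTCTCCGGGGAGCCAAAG
exon 15: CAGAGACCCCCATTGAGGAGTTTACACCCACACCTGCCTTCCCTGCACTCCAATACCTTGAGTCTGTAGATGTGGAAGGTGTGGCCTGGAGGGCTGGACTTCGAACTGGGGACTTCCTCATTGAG
exon 16: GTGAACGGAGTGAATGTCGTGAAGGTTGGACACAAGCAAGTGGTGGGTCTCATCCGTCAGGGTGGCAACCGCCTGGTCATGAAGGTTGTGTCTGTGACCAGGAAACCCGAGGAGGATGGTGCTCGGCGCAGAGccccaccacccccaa
Together the 3 exons hold 341 bases, or 4.63% of the 7365 bases of this transcript. This number leaves a remainder of 2 over codons of 3 bases, so that joining exon 13 to exon 17 shifts the reading frame. The joined sequence is shown from 30 bases before the junction to the stop codon that the shifted frame meets, 67 bases into exon 17, with this stop in capitals.
exon 13 joined to exon 17: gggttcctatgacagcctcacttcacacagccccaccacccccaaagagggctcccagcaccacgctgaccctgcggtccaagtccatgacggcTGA
The deposited table has a value per gene and not per exon, so that reads from exons outside the deletion count towards Shank3 in HM mice as well.

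The values are normalized counts, which the authors computed over all 45 samples with DESeq2. Fold changes are differences of mean log2(value + 1), with a standard error from limma, and the 16507 genes whose values averaged 10 or more across the 15 cortex samples were tested. In the text a gene rose or fell only if its Benjamini-Hochberg adjusted p from limma was under 0.05 over all these genes. Higher and lower, with an unadjusted p under 0.05 where a count is given, describe values and are no call.

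The Shank3 mRNA of HM cortex fell to 50.6% of the WT mean. The 5 HM mice had 4066, 4446, 4171, 3689 and 3897 normalized counts of Shank3 and the 5 WT mice 6985, 7519, 8365, 8717 and 8437. All HM values lay below all WT values, with means of 4054 ± 285 and 8005 ± 725 (SD, n = 5). The 5 HT mice, at 5748, 6607, 6090, 6422 and 5822 normalized counts or 76.7% of WT, lay between the groups without overlap with either. The log2 fold change of Shank3 from WT to HM was -0.98 ± 0.07 (SE), with a limma adjusted p of 4.76e-07 and a two-sided exact permutation p of 0.00794, the smallest that 5 against 5 mice allow. Against HT mice Shank3 fell by 0.60 on the log2 scale in HM mice (limma adjusted p = 0.000934), and it was the 1 gene called in that comparison (0.00606% of the genes tested).

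Only 2 of the 16507 genes were called in the HM cortex, Shank3 as the lower (0.00606% of the genes tested) and Gpr139 as the higher gene (0.00606%). Gpr139 encodes an orphan G protein-coupled receptor that responds to aromatic amino acids and is known for its expression in the habenula and striatum. It lies on the minus strand at chr7:119140747-119184603. The 5 HM mice had 46.4, 67.7, 44.1, 37.1 and 61.4 normalized counts of Gpr139, against 12.2, 15.3, 24.1, 16.5 and 11.9 in the WT mice. All HM mice lay above all WT mice, and the HM mean of 51.3 ± 12.7 was 3.21-fold the WT mean of 15.98 ± 4.93 (SD, n = 5). Gpr139 rose by 1.63 ± 0.24 (SE) on the log2(value + 1) scale, with a 95% interval of 1.13 to 2.14, a limma adjusted p of 0.0208 and an exact permutation p of 0.00794. In HT mice Gpr139 stood at 28.8, 31.4, 48.5, 35.4 and 24.7 normalized counts. These values overlap those of HM mice and begin just above the highest WT mouse, with a log2 fold change of 1.04 against WT that was not called (limma adjusted p = 0.9997). Without HM replicate 2, which is set apart by striatal transcripts, the log2 fold change of Gpr139 was 1.53 ± 0.25 and its limma adjusted p 0.0876, so that Shank3 was then the 1 gene called (0.00606%). The call of Gpr139 was also lost without each of HM replicates 1, 3 and 5 and WT replicates 1, 2, 4 and 5, at limma adjusted p of 0.0562 to 0.124, while its log2 fold change stayed at 1.53 to 1.79 in all 24 alternative settings that gave it a value.

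**Figure D1:**
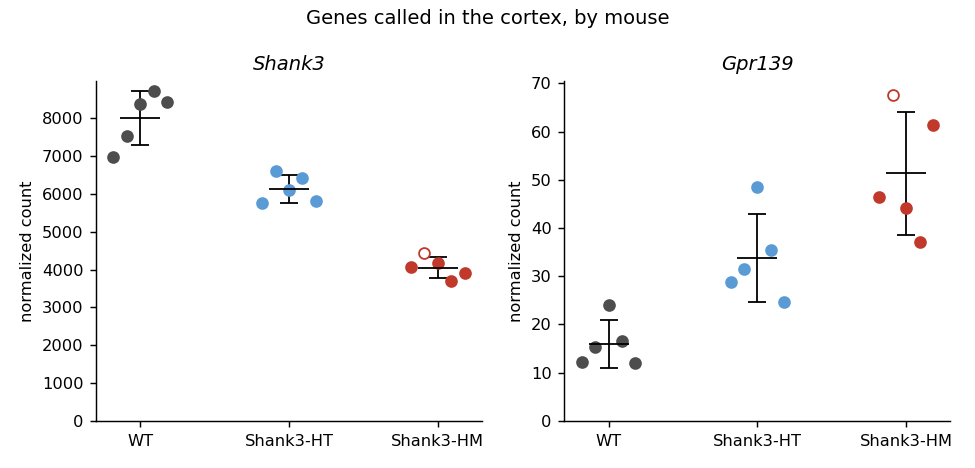
Normalized counts of Shank3 and Gpr139 (vertical axes, from 0) in the cortex of the 5 WT, 5 Shank3-HT and 5 Shank3-HM mice, with each point a mouse and bars for the group mean and SD (HM replicate 2 as an open circle). Shank3 in HM mice lies between 3689 and 4446, below all other mice, and Gpr139 in HM mice lies between 37.1 and 67.7, above all WT mice.

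HM replicate 2 held transcripts of striatal neurons, and counts over the gene lists are therefore given with and without it. Drd1, the dopamine receptor of the direct pathway neurons of the striatum, had 225, 2483, 215, 160 and 214 normalized counts in HM replicates 1 to 5 and 143 to 199 in WT mice. Drd2, the dopamine receptor of the indirect pathway neurons, had 1312 in HM replicate 2 against 19.6 to 72.0 in the other HM mice and 24.8 to 30.6 in WT mice. Penk, which encodes the opioid peptide precursor proenkephalin, had 10018 in HM replicate 2 against 683 to 1009 in the other HM mice and 804 to 961 in WT mice. The high values of all 3 genes thus came from the same mouse. The cortical glutamate transporter Slc17a7 was at 21676 in this sample, against 33605 to 41130 in the other HM mice and 37488 to 40525 in WT mice. Over 23 striatal genes, HM replicate 2 lay a median of 17.6% of the way from the mean of WT cortex to the mean of WT striatum (10.5% to 59.8% for the individual genes), and the other 14 cortex samples between -0.22% and 0.54%. The median rank correlation with the other cortex samples was 0.984 for HM replicate 2 and 0.991 to 0.993 for the other HM mice.

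Gpr139 is itself a gene of the striatum, with a WT mean of 544 normalized counts there, 34.0-fold that of WT cortex. On the same scale of distance to the striatum, Gpr139 stood at 5.76%, 9.79%, 5.32%, 3.997% and 8.61% in HM replicates 1 to 5, at 1.65% to 6.16% in HT mice and at -0.76% to 1.53% in WT mice. HM replicate 2 was the highest of the HM mice, with HM replicate 5 close to it. In the 4 other HM mice, which lay above all WT mice for Gpr139, Drd1 stood at -0.10% to 0.67%, Drd2 at -0.10% to 0.54% and Penk at -0.46% to 0.32% of the way. Over all 23 striatal genes, the highest stood at 4.33%, 0.60%, 0.85% and 5.98% of the way in HM replicates 1, 3, 4 and 5, against 0.62% to 2.77% in WT mice and 1.79% to 3.57% in HT mice. The highest gene came nearer to the position of Gpr139 in HM replicates 1 and 5 than in HM replicates 3 and 4. The medians of the 23 genes were 0.54%, -0.16%, -0.10% and 0.07% in HM replicates 1, 3, 4 and 5. The part of striatal tissue in the Gpr139 values was not tested. Of these 4 mice, Drd2 was still above all WT mice in HM replicates 1 and 4, and Drd1 in HM replicates 1, 3 and 5.

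**Figure D2:**
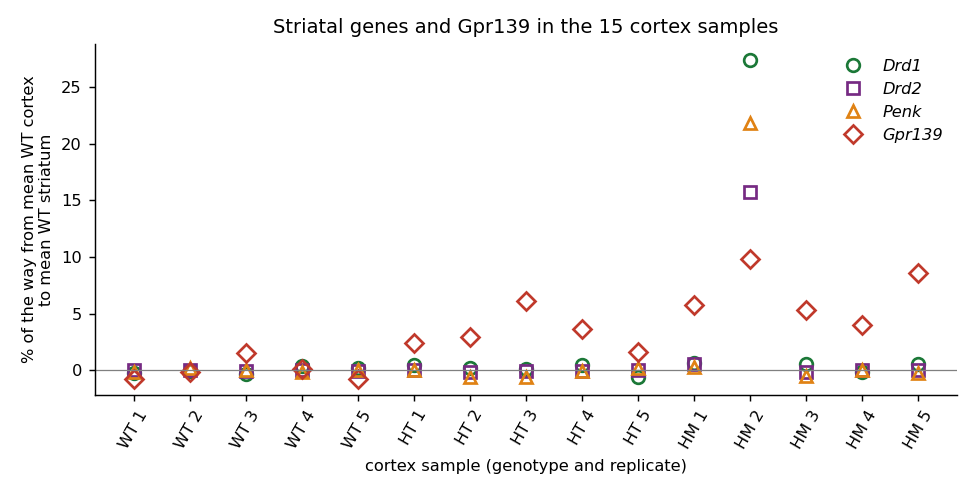
Position of striatal genes and of Gpr139 in each of the 15 cortex samples, in percent of the way from the mean of WT cortex to the mean of WT striatum (vertical axis), by genotype and replicate (horizontal axis). Drd1, Drd2 and Penk lie near 0 except in HM replicate 2, at 27.4%, 15.7% and 21.8%, and Gpr139 lies at 3.997% to 9.79% in the 5 HM mice. Of the 23 striatal genes, which are not all drawn, the highest reaches 4.33% in HM replicate 1 and 5.98% in HM replicate 5.

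Across all genes the HM cortex differed little from that of WT mice. The median log2 fold change over the 16507 genes was -0.0025, with a median standard error of 0.10, and for 72.4% of the genes the 95% interval lay within -0.5 to 0.5. Without adjustment, 437 genes were higher (2.65%) and 470 lower (2.85%) at a limma p under 0.05. Without HM replicate 2 these were 421 (2.55%) and 427 (2.59%), and 525 genes passed in both fits. After Shank3 and Gpr139, the smallest adjusted p of any gene was 0.878. Of the 69 genes with a log2 fold change of at least 1, 56 remained at 0.5 or more without HM replicate 2, and of the 36 at -1 or below, 34 remained at -0.5 or below.

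**Figure D3:**
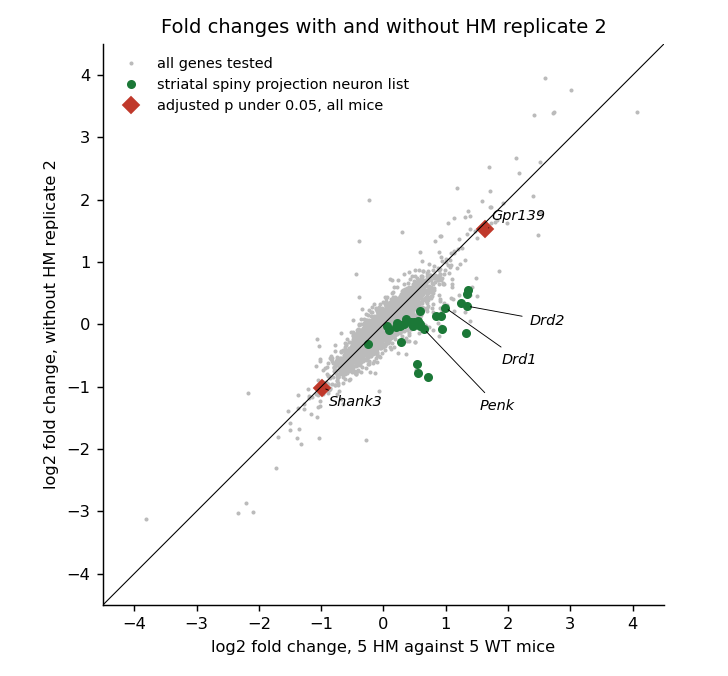
Log2 fold change of HM against WT cortex with all 5 HM mice (horizontal axis) and without HM replicate 2 (vertical axis), a point per gene tested, with striatal marker genes and the called genes in colour and a line where both values are equal. Shank3 (-0.98 and -1.01) and Gpr139 (1.63 and 1.53) keep their place, whereas Drd2 (1.34 and 0.29) and Penk (0.65 and -0.07) move towards 0.

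In 132 genes the 5 HM and the 5 WT mice did not overlap, with 64 genes higher (0.388% of the genes tested) and 68 lower (0.412%) in HM mice. Of these, 13 were higher and 19 lower by at least 0.5 on the log2 scale. With 5 against 5 mice, chance alone separates a gene fully with a probability of 0.00794 over both directions. The 132 of 16507 genes are near this share, so that most of them could be separated by chance. The genes with the smallest limma p in each direction are described here by their values, and apart from Shank3 and Gpr139 none was called (limma adjusted p = 0.878 for each). Leaving out any HM or WT mouse left fewer values to overlap, and then 105 to 152 genes were higher and 99 to 185 lower, with 141 and 130 without HM replicate 2.

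Among the higher ones were both a scaffold and an adaptor of inhibitory synapses. Gephyrin, encoded by Gphn, anchors glycine and GABA-A receptors, and it had 1801, 1902, 1549, 2082 and 1683 normalized counts in HM mice against 1413, 1483, 1358, 1415 and 1548 in WT mice, with a log2 fold change of 0.32 ± 0.08 (SE). The lowest HM mouse, replicate 3, was just above the highest WT mouse, and HT mice had 1408 to 1793. Fam196a, which encodes the inhibitory synaptic factor INSYN2A that binds gephyrin, had 328, 403, 284, 321 and 287 against 263, 281, 217, 254 and 242. Its log2 fold change was 0.36 ± 0.10, and 0.28 without HM replicate 2, the highest of the HM mice.

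Plpp4, a phospholipid phosphatase, had 74.6, 74.1, 75.7, 54.4 and 76.6 normalized counts in HM mice against 32.9, 46.8, 34.6, 54.2 and 42.3 in WT mice (log2 fold change 0.75 ± 0.18). HM replicate 4 lay close to the highest WT mouse, and the other HM mice close together far above it. Nfkbia, which encodes the inhibitor of NF-kappaB and is induced by glucocorticoids and by NF-kappaB itself, had 616, 554, 545, 460 and 667 against 407 to 443 (log2 fold change 0.42 ± 0.10). The WT mice differed little from each other, and the HM mice spread more widely. The long intergenic RNA B830042I05Rik had 18.4 to 29.5 against 7.88 to 15.3, and HT mice at 17.9 to 21.6 also lay above all WT mice. Acaa1b, a peroxisomal thiolase of fatty acid oxidation with a close paralog between which reads could be divided, had 12.1 to 25.7 against 4.91 to 9.22. Itfg2, a subunit of the KICSTOR complex of mTORC1 regulation, Gps2, a subunit of the NCoR corepressor complex, and Rrp7a, a factor of ribosomal RNA processing, were higher by 0.31, 0.26 and 0.21 on the log2 scale.

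The lower genes included a peptide hormone and a peptide-processing enzyme. Apln, which encodes the peptide apelin, had 811, 810, 760, 786 and 815 normalized counts in HM mice against 989, 852, 977, 1053 and 919 in WT mice, with a log2 fold change of -0.26 ± 0.06 (SE). The 5 HM mice differed little from each other. Pam, the enzyme that amidates the ends of neuropeptides, had 5600, 4703, 5108, 5591 and 5383 against 6153, 5717, 6190, 6091 and 6622 (log2 fold change -0.22 ± 0.05). HM replicate 2 was the lowest, and the fold change without it was -0.18. Igfbp2, a binding protein of insulin-like growth factors, had 288 to 552 against 572 to 678, with a log2 fold change of -0.58. Tnfrsf19, a receptor of the tumour necrosis factor receptor family, had 1633 to 1897 against 1960 to 2193.

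The remaining lower genes were Gins2, a subunit of the GINS complex of DNA replication, at 7.93 to 15.4 against 15.99 to 53.8, and the cytochrome P450 gene Cyp4b1 at 3.14 to 11.7 against 12.8 to 32.0. Both have low values, and the HT mice spread over both groups for Gins2, at 7.86 to 32.4. Rasgef1b, a guanine nucleotide exchange factor, Aco1, the cytosolic aconitase that also regulates iron-responsive mRNAs, and the transcript Gm42771 were lower by 0.29, 0.21 and 0.97 on the log2 scale. Of the 132 genes, 88.6% were protein coding, against 87.2% of all genes tested. Apart from Shank3 itself, none of the 132 lay within 5 Mb of Shank3, where 75 other genes were tested. At the shares over all genes (0.388% higher and 0.412% lower), 75 genes are too few for this count to tell anything about the locus.

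**Figure D4:**
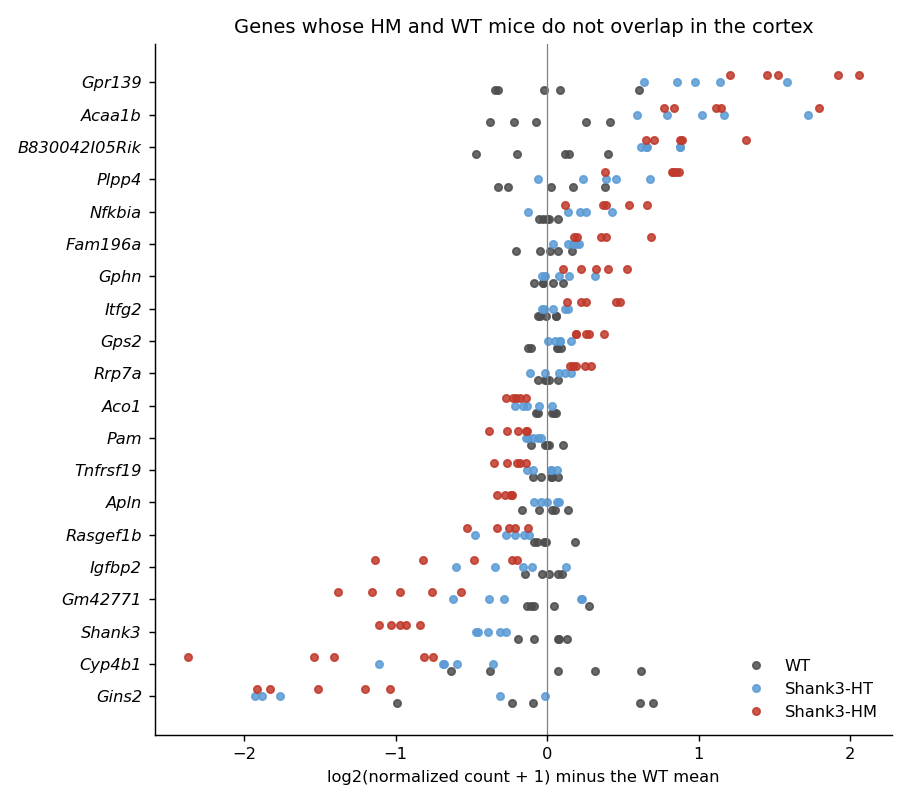
Genes without overlap between HM and WT cortex, those with the smallest limma p in each direction, with log2(normalized count + 1) minus the WT mean on the horizontal axis and a point for each WT, HT and HM mouse. Shank3 and Gpr139 are the called genes, and the HM mice of the others lie beyond all WT mice, by little for genes such as Gphn and Pam.

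Genes of the excitatory synapse were described as lists, by counts and medians. Over all genes tested, 2.65% were higher and 2.85% lower at an unadjusted p under 0.05 with all mice. Without HM replicate 2 these shares were 2.55% and 2.59%. With a median log2 fold change of -0.0025, nearly as many of all genes lay above 0 as below it. The lists hold neither Shank3 nor Gpr139, which are described above, so that no member of the 34 lists was called by construction. Of the 23 genes of the postsynaptic scaffold, none was higher and 2 were lower at an unadjusted p under 0.05 (2.65% and 2.85% of all genes), and 3 of the 23 were above 0. When HM replicate 2 was left out, none was higher and none lower, and 5 were above 0. The median log2 fold change was -0.05, and -0.03 without HM replicate 2. The 95% interval of each of the 23 genes lay within -0.5 to 0.5. The 2 lower ones with all mice were Iqsec2, a guanine nucleotide exchange factor of ARF6 at the postsynaptic density, and Homer2, a partner of SHANK proteins. Iqsec2 had 7881, 5329, 6933, 7812 and 6654 normalized counts in HM mice against 7637 to 8139 in WT mice, and its log2 fold change of -0.19 became -0.10 without HM replicate 2. Homer2 went from -0.21 to -0.15, and neither gene passed without this mouse. Dlg4, which encodes PSD-95, and Dlgap3, which encodes the SAPAP protein SAPAP3, differed from WT by -0.09 and -0.10 on the log2 scale, and by -0.06 each without HM replicate 2, and did not pass.

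Of 21 genes of AMPA receptors and their auxiliary subunits, 1 was higher and 1 lower at an unadjusted p under 0.05 (2.65% and 2.85% of all genes). The median was -0.00, and without HM replicate 2 there were 2 higher and 1 lower (2.55% and 2.59% of all genes). The lower one was Nptxr, the receptor of the neuronal pentraxins that cluster AMPA receptors, with 27570, 16339, 23153, 25292 and 25336 normalized counts in HM mice against 25705 to 31542 in WT mice. HM replicate 2 was by far the lowest, and the log2 fold change of -0.32 became -0.19 without it. The higher one was the auxiliary subunit Shisa7, at 0.15, which became 0.09 and did not pass without HM replicate 2. The AMPA receptor subunit Gria1 had a log2 fold change of 0.14, and 0.07 without HM replicate 2, and did not pass. Among 15 genes of NMDA and kainate receptors 1 was lower, the NMDA receptor subunit Grin2c at -0.18, and -0.17 without HM replicate 2, where it again was the 1 that passed. None of 7 metabotropic glutamate receptors passed with or without this mouse. Of 25 genes of GABA-A receptors and inhibitory synapses, 3 were higher (Gphn, Fam196a and Shisa7) and none lower with all mice, but 2 were higher and 2 lower without HM replicate 2. Gphn and Fam196a were the higher ones in both, and 11 of the 25 were above 0 with all mice, at a median of -0.01. The postsynaptic adhesion protein of inhibitory synapses Nlgn2 stood at -0.10.

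Of 44 synaptic adhesion genes 2 were lower and none higher (2.85% and 2.65% of all genes), 8 were above 0 and the median was -0.08. Leaving out HM replicate 2 gave 1 lower and 1 higher, 9 above 0 and a median of -0.04. The 2 lower ones were Slitrk2 and Lrfn5, synaptic adhesion proteins that bind presynaptic receptor phosphatases, at -0.19 each, of which Lrfn5 became -0.13 and did not pass without this mouse. Of 40 genes of the active zone and of release 1 was lower with all mice, the active zone scaffold Bsn at -0.18, and 11 were above 0, with a median of -0.06. The direction of the count turned without HM replicate 2, with 2 higher and none lower, 19 above 0 and a median of -0.01, and Bsn at -0.09 did not pass. Of 40 spine actin regulators 1 was higher, Baiap2 at 0.18, which encodes IRSp53, a SHANK-binding protein that shapes spines, and 1 was lower, Rasgrf2 at -0.22. The fit without HM replicate 2 also gave 1 higher and 1 lower, with Baiap2 at 0.17 and Rasgrf2 at -0.14, which did not pass. Of 12 receptors and effectors that work with GPR139, none passed with or without HM replicate 2. With all mice the median was -0.04 and 4 of the 12 were above 0, and without HM replicate 2 these were 0.01 and 7. Of 104 autism risk genes other than Shank3, 3 were higher and 1 was lower (2.65% and 2.85% of all genes), with a median of -0.00. Without HM replicate 2 only 1 was higher and 2 were lower (2.55% and 2.59%). Of 24 genes flanking Shank3 on chromosome 15, 1 was lower with and without HM replicate 2. This was Lmf2, at 331 to 425 normalized counts in HM mice, against 382 to 514 in WT mice and 317 to 436 in HT mice.

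Glucocorticoid-responsive genes were the list with the largest share of higher members at an unadjusted p under 0.05 among the functional lists. Of its 29 genes, 8 were higher and none lower (2.65% and 2.85% of all genes). The median log2 fold change was 0.17, and 25 of the 29 were above 0. Without HM replicate 2 the median was 0.18, with 6 genes higher and 1 lower (2.55% and 2.59% of all genes). The mean log2 level of the list, relative to the WT mean, was 0.15 to 0.24 in HM mice and -0.17 to 0.14 in WT mice, the only list of the 34 in which the groups did not overlap, and -0.02 to 0.19 in HT mice. Besides Nfkbia the higher genes included Sgk1, a kinase induced by glucocorticoids, with 2343, 2274, 2056, 1406 and 2245 normalized counts in HM mice against 1377, 1712, 1657, 1501 and 1201 in WT mice. HM replicate 4 lay among the WT mice and the others above all of them. Fkbp5, a chaperone of the glucocorticoid receptor, had 848, 1359, 1297, 1093 and 1002 in HM mice against 588 to 964 in WT mice. Arrdc2, an arrestin-domain protein, had 348, 303, 357, 246 and 301 against 214 to 288.

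In the 44 activity-regulated genes 2 were higher and none lower (2.65% and 2.85% of all genes), with a median of 0.08. Without HM replicate 2 there were 3 higher (2.55% of all genes) and a median of 0.10. The 2 higher ones with all mice were the transcription factor Jun at 0.32 and Errfi1, an inhibitor of EGF receptor signalling that also stands in the glucocorticoid list, at 0.17. The mean level of these genes ranged from -0.14 to 0.28 in HM and from -0.41 to 0.35 in WT mice, so that the WT mice spanned the HM range. Of 79 cytosolic ribosome genes 5 were higher and none lower (2.65% and 2.85% of all genes), with a median of 0.04, and 59 were above 0. The other 4 HM mice gave 6 higher and none lower, with a median of 0.03 and 52 above 0. Rps24, a protein of the small subunit, had 4780, 5108, 5012, 5717 and 4966 normalized counts in HM mice against 4091 to 4723 in WT mice, with a log2 fold change of 0.17. Of 103 spliceosome genes 6 were higher and none lower (2.65% and 2.85% of all genes), with a median of 0.05, and 79 were above 0. Leaving out HM replicate 2 gave 4 higher and 1 lower, with a median of 0.05 and again 79 above 0. Cdc5l, a core protein of the spliceosome, had 1357 to 1526 against 1256 to 1308, without overlap. None of 73 respiratory chain genes passed with or without HM replicate 2, with a median of -0.01, and of 21 circadian clock genes 1 was lower, the clock transcription factor Arntl at -0.15, and none without HM replicate 2.

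**Figure D5:**
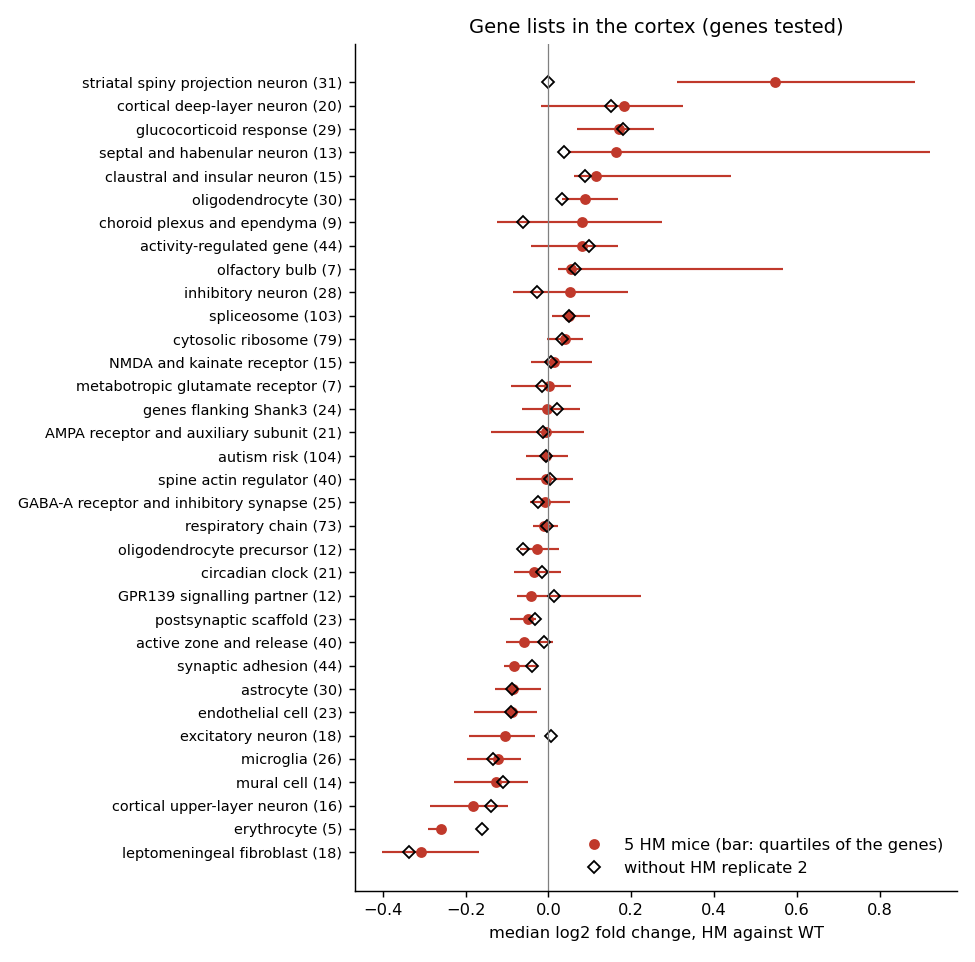
Median log2 fold change of HM against WT cortex (horizontal axis) for each of the 34 gene lists (vertical axis, with the number of genes tested), with all HM mice (circles, bars for the quartiles of the genes) and without HM replicate 2 (diamonds). Of the medians with all mice 23 lie within 0.1 of 0, the striatal list moves from 0.55 to -0.00, and the glucocorticoid list lies at 0.17 and 0.18.

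Markers of cell types were used to describe the makeup of the tissue, where fewer cells of a type and less RNA per cell cannot be told apart. Of 31 markers of striatal projection neurons 2 were higher, Adora2a and Syndig1l, and the list median of 0.55 became -0.00 without HM replicate 2, with no member past an unadjusted p of 0.05. Markers of upper and of deep cortical layers had medians of opposite sign. Of 16 upper-layer markers none was higher and 6 were lower (2.65% and 2.85% of all genes), with a median of -0.18. Without HM replicate 2 it was 4 lower and -0.14. Above 0 were 3 of the 16, the highest at 0.41, and 2 without HM replicate 2. Cux2, a transcription factor of upper-layer neurons, had 4442, 2978, 3684, 4589 and 3491 normalized counts in HM mice against 4293, 5240, 5081, 4678 and 4705 in WT mice. HM replicates 1 and 4 lay within the WT range and the other HM mice below it. Its log2 fold change was -0.34 ± 0.10 (SE), and -0.25 without HM replicate 2. Stard8 and Calb1 of this list stood at -0.30 and -0.28.

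Of 20 deep-layer markers 4 were higher and none lower (2.65% and 2.85% of all genes), with a median of 0.18. Without HM replicate 2 it was 3 higher and 0.15. Above 0 were 14 of the 20, in a range of -0.40 to 0.71, and 17 without HM replicate 2. Pcp4, a calmodulin-binding peptide of deep-layer neurons, had 3478, 4957, 3515, 3373 and 3608 against 3156, 3328, 2977, 3066 and 2842, without overlap, and its log2 fold change of 0.29 became 0.19 without HM replicate 2. The other higher ones, Tle4, Syt6 and Bcl11b, became 0.13, 0.30 and 0.15 from 0.21, 0.71 and 0.39. Of these genes, at least Bcl11b is also expressed in striatal projection neurons. Over the list, the mean level relative to WT was -0.06 to 0.32 in HM mice and -0.08 to 0.10 in WT mice, and for the upper-layer list it was -0.26 to 0.02 and -0.06 to 0.05. HT mice ranged from -0.17 to 0.06 in the deep-layer list and from -0.26 to 0.09 in the upper-layer list. The groups overlap in both lists. Of 15 claustral and insular markers 1 was higher, Ccn2 at 0.52, and without HM replicate 2 there were 2, with Ccn2 at 0.60.

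Markers of microglia, endothelial cells and astrocytes had medians below 0. Of 26 microglial markers 5 were lower and none higher (2.85% and 2.65% of all genes), with a median of -0.12, and 2 of the 26 were above 0. Without HM replicate 2 there were 4 lower, with a median of -0.13 and 1 above 0. Cx3cr1, the fractalkine receptor of microglia, had 992, 919, 1002, 1126 and 1117 normalized counts in HM mice against 1017, 1293, 1221, 1223 and 1335 in WT mice. Except for WT replicate 1 the WT mice lay above all HM mice. The mean level of the list was -0.18 to -0.07 relative to WT in HM mice and -0.09 to 0.06 in WT mice, with HT mice at -0.17 to -0.03. Siglech, Selplg and Fcrls, further microglial surface proteins, stood at -0.23, -0.19 and -0.21.

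Of 23 endothelial markers 6 were lower and none higher (2.85% and 2.65% of all genes), with a median of -0.09. Without HM replicate 2 it was 7 and none (2.59% and 2.55% of all genes), with a median of -0.09 again. Kdr, the VEGF receptor of endothelial cells, had 390, 344, 320, 415 and 388 in HM mice against 471, 503, 412, 422 and 582 in WT mice, with HM replicate 4 just above the lowest WT mouse (log2 fold change -0.36 ± 0.09). Slco1a4, a transporter of the blood-brain barrier, Cldn5, its tight junction protein, and Esam, an endothelial adhesion molecule, stood at -0.29, -0.28 and -0.23. Of 14 mural cell markers 2 were lower, Pdgfrb, the pericyte receptor of platelet-derived growth factor, at -0.24 without overlap, and the potassium channel Kcnj8 at -0.37, and 1 was higher, Cnn1 at 1.21, the same counts as without HM replicate 2. Of 30 astrocyte markers 5 were lower and 1 higher (2.85% and 2.65% of all genes), with a median of -0.08. Without HM replicate 2 there were 10 lower and none higher (2.59% and 2.55% of all genes). The lower ones included the mitochondrial carrier Slc25a18 at -0.27, the transcription factor Sox9 at -0.37 and the glutamate transporter Slc1a2 at -0.23. Leptomeningeal markers, with a median of -0.31 over 18 genes of which none passed, spread from -1.62 in HM replicate 3 to 0.30 among HM mice. Red blood cell markers had a median of -0.26 over 5 genes, and -0.16 without HM replicate 2, and none passed. Of 30 oligodendrocyte markers 2 were higher, Mobp and Myrf, and 1 lower, Gal3st1, with a median of 0.09, and 0.03 without HM replicate 2, where none passed.

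The effect of the HM genotype in the cortex was set against that in the striatum and hippocampus of the same study, in a limma fit of all 45 samples and 16708 genes. The study used 5 mice per genotype, by which the 3 regions would come from the same mice, but the labels do not link samples to mice, and the fit treats the samples as separate. The log2 fold change of Shank3 was -0.98 in the cortex, -1.11 in the striatum and -1.06 in the hippocampus. Its differences of the cortex from the others were not called, at 0.13 ± 0.09 (SE, limma adjusted p = 0.966) and 0.08 ± 0.09 (limma adjusted p = 0.999). Gpr139 was higher by 1.63 in the cortex, by 0.12 in the striatum and by 0.21 in the hippocampus. Its difference between cortex and striatum was 1.51 ± 0.29 (limma adjusted p = 0.0129), and that between cortex and hippocampus was 1.42 ± 0.29 and not called (limma adjusted p = 0.195).

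In all, 9 genes differed in effect between cortex and striatum (0.0539% of the genes tested). With samples of the same genotype and replicate number taken as the same mouse in a replicate block, these were 20, with Gpr139 at a limma adjusted p of 0.00683. Besides Gpr139 they included Pam, with -0.22 in the cortex and 0.13 in the striatum (limma adjusted p = 0.0129), and B830042I05Rik, with 0.89 and -0.90 (limma adjusted p = 0.0129). The other 6, Hhipl1, Rimbp2, Ackr1, Csdc2, Mpp3 and the pentraxin Nptx2, lay between -0.16 and 0.09 in the cortex and between 0.31 and 0.74 in the striatum, the larger values being those of the striatum. Without HM replicate 2 of the cortex 7 genes were called, and the difference of Gpr139 from the striatum was 1.41 (limma adjusted p = 0.0426). No gene was called for the cortex against the hippocampus with limma, where 743 genes had an unadjusted p under 0.05.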

How the data were processed

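RNA sequencing values of 45 samples (3 regions, 3 genotypes, 5 mice each) were used, and the comparison rests on 10 of them with the 5 heterozygous cortex samples in the same fit. The deposited values are of the unit signal, normalized counts that the authors made by quasi-mapping with Salmon 1.1.0 with GC bias correction, import with tximport, and size factors of DESeq2 1.26.0 in R 3.6.2 over all samples (build GRCm38 per the labels). These versions are those given with the deposited samples, and the paper's methods name other versions of R and DESeq2. The scaling to all regions and the estimated counts mean that whole reads could not be recovered and that depth is unknown. Cortex totals of 26938860 to 29187371 are normalized and not depth, so no counting error is given. Count models were therefore not used.

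Values were transformed as log2(value + 1), which understates fold changes of low genes. Genes averaging 10 or more across the 15 cortex samples were fitted in limma 3.58.1 (lmFit, eBayes with intensity trend, R 4.3.3) with p values adjusted by the Benjamini-Hochberg method at 0.05. Exact permutation tests were two-sided. The columns of each group are separate mice, so p values measure the spread between mice. On simulated data with 200 changed genes in a comparison of 5 HM and 5 WT cortex samples over 16507 genes, 84% of those changed by 1 and 61% of those changed by 0.5 on the log2 scale were called, with 6 false calls among 151. The simulated mice all had the same spread for a gene, and none stood apart as HM replicate 2 did. Many true changes also ease the adjusted threshold, so these shares do not carry over to the real comparison with its 2 calls.

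The comparison, the gene lists and the tests were chosen with earlier results of these data known. Named are Shank3, called genes, the 10 genes per direction with the smallest p among those without overlap, up to 4 members per list with the smallest p, Drd1, Drd2 and Penk, and markers used to describe a sample. Alternatives tried were a mean minimum of 100 or none, a pseudocount of 0.1, no trend, quantile normalization, array weights, only the compared groups, a striatal covariate, a replicate block and leaving out each mouse. Exon sequences were read from the GRCm38 genome with GENCODE M21.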

Additional observations from a re-analysis of the deposited data

Results flagged for a closer look

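In groups of 5 mice, a mouse was noted if its gap to its nearest neighbour took up more than 0.71 of the range of its group. The named genes and the lists were looked at in this way. Chance alone marks a small share of groups. Of 252 gene groups 15 were marked, and of 102 list groups 8. Drd1 and Penk were named because HM replicate 2 was known to be high in them, so that their marks were fixed in advance. With them, this sample accounts for 7 of the genes. It had 2483 normalized counts for Drd1, 10018 for Penk, 1692 for Adora2a, 11294 for Gria1, 4957 for Pcp4 and 3711 for Bcl11b on the high side. On the low side it had 14979 for Bsn. It also stands apart in its median rank correlation with the other cortex samples, 0.984, and in 5 lists, at a mean log2 level relative to WT of 3.12 for striatal projection neurons, 2.19 for septal and habenular neurons, 0.48 for inhibitory neurons, 0.0608 for NMDA and kainate receptors and -0.57 for excitatory neurons. Some genes of the septal and habenular list are also expressed in the striatum. Dlk1 had a mean of 423 in WT striatum against 12.9 in WT cortex, and Lhx8 had 149 against 0.65. The source of these transcripts was not tested.

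Other mice stood apart in scattered genes, and these may be no more than the marks that chance gives among so many groups. Plpp4 was at 54.4 in HM replicate 4, where the other HM mice had 74.1 to 76.6, and Sgk1 was at 1406 in the same mouse. Fmod, a proteoglycan of the meninges, was at 75.01 in HM replicate 3, and the list of leptomeningeal markers at -1.62. Sox9 was at 633 in WT replicate 3, and the genes flanking Shank3 at 0.0887. Among HT mice, Drd1 was at 119 in replicate 5, Lrfn5 at 1662 and Cdc5l at 1125 in replicate 3, Arrdc2 at 224 in replicate 4, and metabotropic glutamate receptors at -0.21 in replicate 3.

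The effect of the HM genotype differed between cortex and striatum in 9 genes by limma. The differences of the log2 fold changes, cortex minus striatum, were 1.51 for Gpr139, 1.79 for B830042I05Rik, -0.35 for Pam, -0.66 for Hhipl1, -0.43 for Rimbp2, -0.47 for Ackr1, -0.52 for Csdc2, -0.52 for Mpp3 and -0.84 for Nptx2.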

How the results depend on the processing

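Shank3 was called in all 25 alternatives, with log2 fold changes of -1.03 to -0.95 and limma adjusted p of 9.73e-08 to 6.38e-05, and it was the 1 gene called against HT mice in each of them. Of the 2 genes called against WT mice, 1, Shank3, was called with a mean minimum of 100 (Gpr139 is then not tested), with only the compared groups fitted, with the striatal list as a covariate, and with both HM replicates 2 and 4 left out, an alternative chosen after seeing the data. Leaving out each mouse in turn gave 1 to 2 called genes. Gpr139 kept its direction in all 24 alternatives that gave it a value and was called in 12, with limma adjusted p of 0.00772 to 0.130. With the replicate number as a replicate block, 1 gene, Shank3, was called in the cortex, with Gpr139 at an adjusted p of 0.0771. Same-numbered HM and WT mice did not deviate together (correlations of -0.02 to 0.10), and nothing in the labels ties them, so the number is not a pairing. A replicate block that takes same-numbered samples of a genotype across regions as the same mouse, which the labels do not state, raised the 9 genes that differed between cortex and striatum to 20, and a pseudocount of 0.1 raised those against the hippocampus from 0 to 1. Genes without overlap numbered 42 on the lower side with a mean minimum of 100, 64 to 152 higher and 68 to 185 lower with each of the 15 cortex mice left out in turn (the 64 and 68 without an HT mouse, which takes no part in this count), and 346 higher and 330 lower with both HM replicates 2 and 4 left out, where fewer mice remain to overlap. Penk turned from 0.65 to -0.0721 without HM replicate 2, within a range of -0.0721 to 0.90 when each mouse was left out, to -0.0364 with the striatal covariate and to -0.11 without HM replicates 2 and 4, and Slc17a7 turned from -0.21 to 0.00158 in the last of these.

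Depth is unknown, and the median standard error of 0.10 on the log2 scale limits what 5 mice per group can show. Values near 10 normalized counts, as for Gins2, Acaa1b and Cyp4b1, are the least precise. The list counts use unadjusted p values, and genes of a list are not independent of each other.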

Other observations

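Outside the comparison of groups, HM replicate 4 had 12969 normalized counts of Gm28439, which had 0 in the mean of WT mice and in HM replicate 2, and 13963 of Gm10222, which had means of 2410 in WT and 4426 in HM mice. Its weight was 0.596 in a fit that weights samples by their spread, against 0.274 for HM replicate 2. The cause was not tested.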
